A study of Mus musculus with 4 samples.

Results

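Mitral valve interstitial cells are the mesenchymal cells of the valve leaflet. Here they were 270 of the 776 cells kept from 3 single-cell libraries of the mouse mitral valve, 133 of 316 at E16.5, 85 of 283 in P0 replicate 1 and 52 of 177 in P0 replicate 2. A cell was kept if it had at least 500 genes and at most 10% mitochondrial UMIs (unique molecular identifiers, each marking 1 captured transcript). Interstitial cells were chosen by their measured UMIs: a cell was counted if Col1a1, Col1a2 and Col3a1 together made at least 20 of its UMIs per 10000, if it had UMIs of fewer than 2 of the 7 endothelial genes Cdh5, Pecam1, Emcn, Egfl7, Ecscr, Esam and Npr3, and if Rgs5, Kcnj8, Abcc9, Notch3 and Higd1b, which mark pericytes, summed to fewer than 2 UMIs. The comparison groups in the same libraries were 354 cells with at least 2 of the endothelial genes (126, 147 and 81 in that order of libraries) and 45 cells with at least 2 pericyte UMIs.

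The cells came from the Tie2-Cre lineage, in which endothelial cells and their descendants carry the tdTomato reporter from the Rosa26 locus, in C57BL/6 mice. Mitral valves were dissected at E16.5, late in fetal life, and at P0, the day of birth, with at least 60 embryos pooled per stage, digested for 5 or 10 min and sorted on tomato. Valve cells of another origin, such as those derived from the epicardium, would therefore be under-represented. The data hold 1 library at E16.5 and 2 at P0. The labels do not state whether the pups of the P0 libraries differed by litter. The p-values therefore measure how far these libraries spread, and that spread may be technical. Stage and library cannot be told apart for E16.5.

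Interstitial cells arise when endocardial cells of the atrioventricular cushions lose their junctions and invade the matrix, and they then build the layered leaflet. They secrete fibrillar collagens, small leucine-rich proteoglycans that space collagen fibrils, and the microfibrils and elastin that let the leaflet recoil. Defects in several of these products cause prolapse or thickening of the mitral valve.

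The interstitial cells held 301257 UMIs at E16.5, 407893 in P0 replicate 1 and 247845 in P0 replicate 2. Their median depth was 2031, 4333 and 4281.5 UMIs per cell and their median number of genes 747, 1700 and 1686.5, so the E16.5 cells were the shallowest. No interstitial cell was scored as a doublet, and none had a barcode shared between the P0 libraries, which shared 4. The share of kept cells was 42.1% at E16.5 (95% Clopper-Pearson interval 36.6 to 47.7), 30.0% in P0 replicate 1 (24.8 to 35.7) and 29.4% in P0 replicate 2 (22.8 to 36.7), intervals that cover counting error only. Dissection and sorting set these shares, and the E16.5 share fell to 23.2% among cells with at least 1000 genes. The collagen sum of the lowest interstitial cell was 20.2, 20.02 and 20.9 UMIs per 10000 in the 3 libraries, and the highest cell just below the limit had 19.97, 19.2 and 19.8. The median interstitial cell had 46.9, 69.5 and 63.9. At E16.5 the call could rest on as few as 3 collagen UMIs in a cell, against 6 and 4 at P0.

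The label was checked against Lum and Dcn, proteoglycans that mark valve mesenchyme and that the rule did not use. Lum stood at 3.49 UMIs per 10000 in E16.5 interstitial cells, 14.2 in P0 replicate 1 and 14.7 in P0 replicate 2, against 0.934, 1.44 and 1.43 in the endothelial cells. Dcn stood at 11.5, 22.3 and 20.7, against 1.47, 2.26 and 2.07. Both were thus higher in interstitial than in endothelial cells of every library, and both were lower at E16.5 than at P0. Kdr, an endothelial receptor outside the rule, was near 0 in interstitial cells, and the 14 endothelial markers outside the rule summed to 11.9, 9.73 and 9.60, against 82.2, 104 and 92.5 in the endothelial cells. The cells with pericyte UMIs were also rich in matrix genes at P0, where Dcn stood at 25.3 and 19.3, against 22.3 and 20.7 in interstitial cells. At E16.5 their small leucine-rich proteoglycans summed to 16.2 (95% Poisson interval 12.1 to 21.2) against 29.8 (27.9 to 31.8) in interstitial cells.

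**Figure D1:**
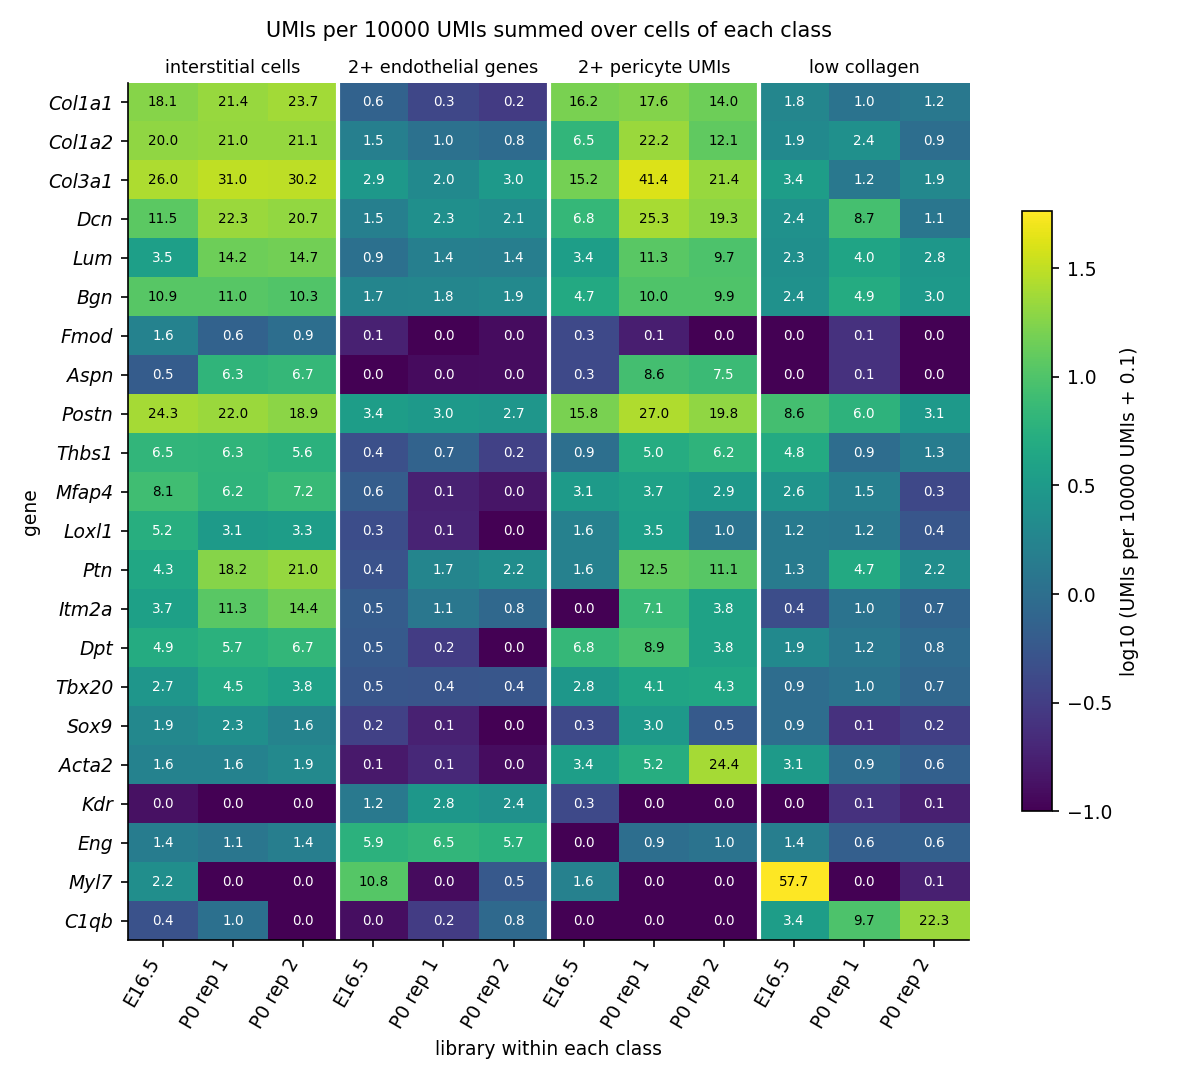
Heat map of UMIs per 10000 UMIs, printed in each field and coloured on a log10 scale after adding 0.1, for marker and leading genes (rows) in interstitial cells, cells with at least 2 endothelial genes, cells with at least 2 pericyte UMIs and the other low-collagen cells of the 3 libraries (columns). Lum, Dcn, Postn, Thbs1 and Mfap4 were higher in interstitial than in endothelial cells of every library, and Myl7 stood out in the low-collagen cells at E16.5.

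Other cell types left a small trace. The 11 cardiomyocyte markers summed to 6.90 UMIs per 10000 in interstitial cells at E16.5, 2.26 in P0 replicate 1 and 10.8 in P0 replicate 2, and to 212 in the low-collagen cells of E16.5. The 10 immune markers summed to 3.55, 4.90 and 0.363, and 1 E16.5 interstitial cell held 99 and 1 P0 replicate 1 cell 197 of these UMIs. The 10 erythroid markers were at 0 in both P0 libraries and at 0.498 at E16.5, where 8 of them were at 0. The 8 epicardial markers summed to 0.232, 0.883 and 0.686, with Wt1 at 0 in E16.5 and P0 replicate 1. Markers of melanocytes and Schwann cells were at 0 at E16.5 and at 0.0981 and 0.0807 at P0. The part of these cells or of free RNA in the results was not tested, except where values without the 5 interstitial cells holding at least 2 immune UMIs are given.

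Against all other kept cells of their library, the genes that led the interstitial cells were matrix and matrix-assembly genes. These genes were ranked by the fold in the library where it was smallest, among genes in at least 20% of interstitial cells, with 0.5 per 10000 added to both sides. The rule chose cells by this contrast, so the values are a description and carry no test. Mfap4, a microfibril-associated glycoprotein, led the list at 8.07, 6.203 and 7.22 UMIs per 10000 against 1.07, 0.518 and 0.328 in the remaining cells, with a smallest fold of 5.45. Ptn, the growth factor pleiotrophin, stood at 4.32, 18.2 and 21.0. Itm2a, a membrane protein, stood at 3.65, 11.3 and 14.4. All 3 exceeded the remaining cells in each library, and Ptn and Itm2a were several-fold lower at E16.5 than at P0.

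Further matrix genes on the list were Dcn, Thbs1, Loxl1, Postn, Pcolce, Itih5, Bgn, Dpt, Fbln1, Col6a1 and Col5a1. Postn, the matricellular protein periostin that binds collagen, was the most abundant of these at E16.5, at 24.3 UMIs per 10000, with 22.04 and 18.9 at P0. Loxl1, a lysyl oxidase that cross-links elastin, stood at 5.24, 3.06 and 3.35 and was between 0 and 0.347 in endothelial cells. Bgn, a proteoglycan close to Dcn, was level over the libraries at 10.9, 11.0 and 10.3. The list also held Lgals1, a galectin, at 95.7, 66.9 and 75.9, the acyl-CoA binding protein Dbi, the actin-severing protein Gsn, Igfbp7, Rcn3 and 1 transcription factor, Tbx20. Tbx20, needed for cushion and valve growth, stood at 2.72, 4.51 and 3.75 against 0.454, 0.440 and 0.446 in endothelial cells, and at 2.80, 4.08 and 4.27 in cells with pericyte UMIs. Postn in those cells stood at 15.8, 27.0 and 19.8 and Dpt at 6.84, 8.92 and 3.76, near or above the interstitial levels in some libraries. In P0 replicate 1 the cells with pericyte UMIs also exceeded interstitial cells for Loxl1 (3.53 against 3.06), Gsn (7.82 against 6.72) and Col6a1 (4.08 against 3.68). At E16.5 they did so for Pcolce (4.66 against 3.22). In the remaining libraries each of these genes was lower in the cells with pericyte UMIs. Sox9, a transcription factor of cushion mesenchyme and cartilage, stood at 1.86, 2.26 and 1.61 against 0.240, 0.0800 and 0 in endothelial cells.

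Within the class, Thbs1, Lum and Fmod were carried by different numbers of cells. Thbs1 encodes thrombospondin 1, a matricellular protein that can activate latent TGF-beta. Lum encodes lumican and Fmod fibromodulin, proteoglycans that bind fibrillar collagen. To compare cells of unequal depth, each cell was thinned at random to 1000 UMIs, which left out no interstitial cell. After thinning Thbs1 was seen in 33.1% of interstitial cells at E16.5, 30.6% in P0 replicate 1 and 34.6% in P0 replicate 2, against 1.61%, 3.40% and 6.17% of endothelial cells, where a UMI may be free RNA. Lum was seen in 25.6%, 58.8% and 53.8%, against 8.06%, 8.84% and 7.41%. Fmod was seen in 9.77%, 5.88% and 9.62%, against 0%, 0% and 1.23%. In this thinning the share with Thbs1 was close in all 3 libraries. The share with Lum was lower at E16.5 than in either P0 library, and the share of each gene stood above the endothelial share. Another random thinning found Thbs1 in 45, 26 and 23 of the 133, 85 and 52 interstitial cells, against 44, 26 and 18 here. The closeness of the Thbs1 shares thus depended on the draw. Lum was found in 38, 52 and 32 cells against 34, 50 and 28, and Fmod in 12, 7 and 3 against 13, 5 and 5. In the 10, 21 and 14 cells with pericyte UMIs, Thbs1 was seen in 20%, 23.8% and 28.6% and Lum in 10%, 52.4% and 28.6%. In the low-collagen cells Thbs1 was seen in 23.1%, 0% and 4.55%. Neither gene was thus particular to interstitial cells. Before thinning, the shares of interstitial cells were 42.9%, 64.7% and 69.2% for Thbs1, 39.1%, 84.7% and 88.5% for Lum, and 16.54%, 20% and 17.3% for Fmod.

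Levels were uneven between cells. The 14 E16.5 interstitial cells with the most Thbs1 UMIs held 52.8% of the Thbs1 UMIs of the class, and the corresponding 9 and 6 cells at P0 held 60.0% and 39.3%. For Lum the corresponding cells held 53.3%, 37.6% and 41.6%. For Fmod they held 83.3%, 69.2% and 86.4%, while for Dcn they held 35.7%, 36.1% and 38.2%. The single highest cell reached 62.4 Fmod UMIs per 10000 at E16.5, 7.79 in P0 replicate 1 and 31.4 in P0 replicate 2. Of Thbs1, Lum, Fmod and Dcn, this share was highest for Fmod and lowest for Dcn in all 3 libraries. At P0 the Dcn share lay close to that of Lum in replicate 1 and of Thbs1 in replicate 2. The shares used UMIs before thinning and depend on abundance. Fmod had a UMI in only 22, 17 and 9 interstitial cells, against 94, 82 and 49 for Dcn, so few cells had to hold the Fmod UMIs. Unevenness beyond abundance was not tested.

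After thinning, 64 of the 133 E16.5 cells had none of the 3 genes, 26 had Thbs1 alone, 21 had Lum alone and 9 had Thbs1 with Lum. In P0 replicate 1 these numbers were 18, 16, 37 and 9 of 85, and in P0 replicate 2 they were 14, 6, 19 and 8 of 52. Lum alone was thus the commonest of these states with a UMI at P0, and Thbs1 alone at E16.5. Fmod occurred with Thbs1 in 9 of the 13 E16.5 cells that had it, in 1 of 5 in P0 replicate 1 and in 4 of 5 in P0 replicate 2. Cells with all 3 genes numbered 2, 1 and 1. These counts come from 1 random thinning, and the combinations were not counted in another.

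**Figure D2:**
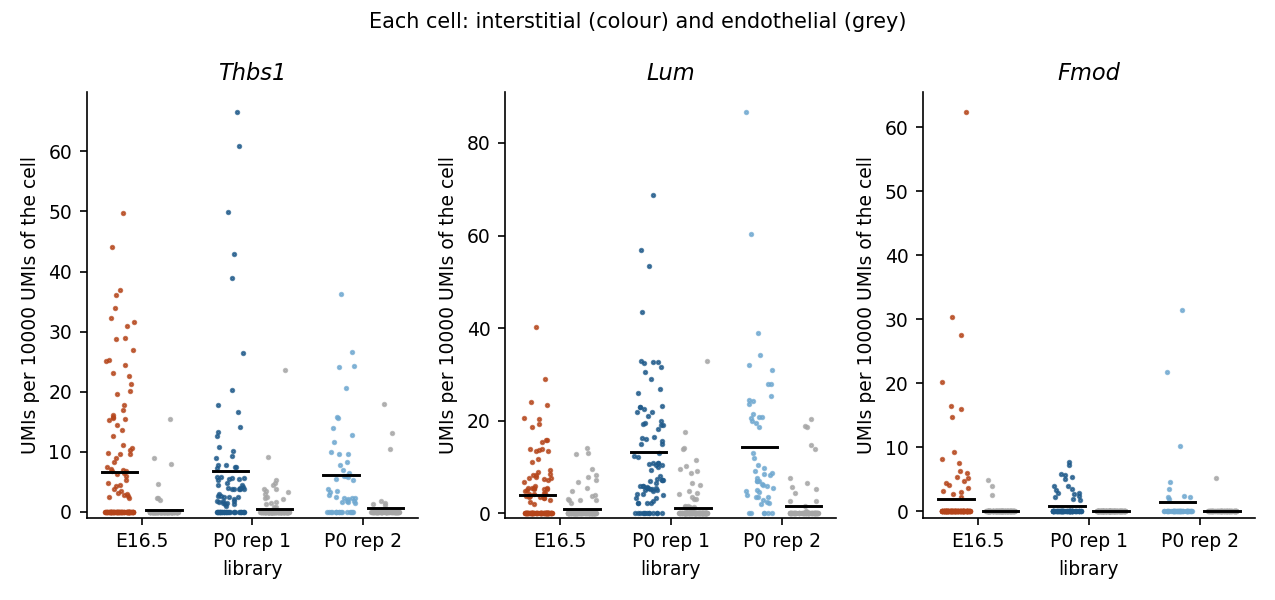
UMIs per 10000 UMIs of each cell, before thinning, for Thbs1, Lum and Fmod in interstitial cells (coloured) and endothelial cells (grey) of each library, with a bar at the mean over cells. Most E16.5 interstitial cells were at 0 for each gene, and the highest Fmod cell, at 62.4, was in the E16.5 library.

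To describe what else differed between cells with and without Thbs1, raw UMIs were summed over each side within each library and compared with the library as a block. The sides held 44 and 89 cells at E16.5, 26 and 59 in P0 replicate 1, and 18 and 34 in P0 replicate 2. Cells with Thbs1 had higher Fmod, Ctgf, Fbln5, Sox9 and Ccl2 and lower levels of genes of dividing cells. Of 1670 genes tested, 10 were higher (0.599%) and 18 lower (1.08%) in edgeR's quasi-likelihood fit after Benjamini-Hochberg adjustment. The calls were not stable. With another random thinning 6 of these 28 genes were called again, although all 28 kept their direction, DESeq2 called 0 at an adjusted p under 0.05, with 39 at an unadjusted p under 0.05, and splitting on all UMIs left 2 higher and 1 lower. The values below therefore describe this split of these cells. A gene entered this test if any 1 sum reached the share that 10 counts are of the smallest sum, 77090 UMIs. Among the genes named below, Fmod and Klf4 reached it only on the side with Thbs1. Ube2c, Birc5, Cdk1 and Cdca3 reached it only on the side without. A call of any of these genes could go only 1 way, so their values are a description.

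Among matrix genes, Fmod stood at 3.35 UMIs per 10000 with Thbs1 and 0.814 without at E16.5, 0.956 and 0.496 in P0 replicate 1, and 2.08 and 0.351 in P0 replicate 2. Its log2 fold was 1.75 (SE 0.37), higher with Thbs1 in 3 of 3 libraries. Fmod entered the test through the side with Thbs1 alone, so its value is a description. Fbln5, fibulin 5 of the elastic fibre, stood at 2.70 and 0.814, 2.95 and 1.31, and 3.37 and 0.937, a log2 fold of 1.47 (SE 0.28). Ctgf, the matricellular protein CCN2 induced by TGF-beta and YAP signalling, stood at 2.06 and 0.0958, 3.11 and 1.45, and 1.297 and 0.527, a log2 fold of 1.65 (SE 0.33). In each of these genes every library was higher on the side with Thbs1. Of the small leucine-rich proteoglycans tested, Fmod was 1 of 7 to pass, and it could pass only as higher. The list's median log2 fold was 0.05, against −0.04 for all genes tested. Lum stood at 3.14 with Thbs1 and 3.64 without at E16.5, 9.48 and 16.3 in P0 replicate 1, and 13.2 and 15.4 in P0 replicate 2. It was lower with Thbs1 in every library but did not pass (log2 fold −0.50, adjusted p 0.20 by edgeR's quasi-likelihood test), and Dcn had a log2 fold of 0.01.

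Among regulators, Sox9 had a log2 fold of 1.004 (SE 0.27), with 2.81 against 1.44, 3.74 against 1.59 and 2.33 against 1.29 UMIs per 10000, and was 1 of 9 valve mesenchyme transcription factors to pass. Klf4, a flow- and stress-responsive transcription factor, had a log2 fold of 1.68 (SE 0.44). It entered the test through the side with Thbs1 alone, so its value is a description. Ccl2, a monocyte-attracting chemokine, stood at 11.2 with Thbs1 and 3.16 without at E16.5, at 1.51 and 0.425 in P0 replicate 1 and at 0.908 and 0.644 in P0 replicate 2. Its log2 fold of 1.54 (SE 0.29, adjusted p 2.7e-05 by edgeR's quasi-likelihood test) was 1.245 without the E16.5 library, at an adjusted p of 0.917 by the same test. Of the 18 dissociation stress genes tested only Klf4 passed, and their median log2 fold was 0.33. Hspb1, a small heat shock protein, had a log2 fold of 1.39 and was higher with Thbs1 in 2 of 3 libraries.

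Genes of the cell cycle lay on the other side. Of the 8 measured, 5 were lower with Thbs1, none was higher, and the median log2 fold was −1.29. Of these 5, Ube2c, Birc5 and Cdk1 entered the test through the side without Thbs1 alone, as did Cdca3 outside the list. Their calls could go only 1 way, so their values are a description. Ube2c, which attaches ubiquitin for the anaphase-promoting complex, stood at 1.19 UMIs per 10000 with Thbs1 and 3.16 without at E16.5, 0.796 and 1.59 in P0 replicate 1, and 0.259 and 3.98 in P0 replicate 2. Its log2 fold was −1.85 (SE 0.32). Birc5 (survivin), Cks2 (a subunit of cyclin-dependent kinases), Cenpa (the centromeric histone), Cdk1 (the mitotic kinase) and Cdca3 had log2 folds of −1.82, −1.54, −1.37, −1.44 and −2.30, each lower with Thbs1 in every library. Hist1h2ap, a replication histone gene with near-identical copies, had −1.63, and its value is uncertain for that reason. The imprinted gene Dlk1, which encodes a Notch-related membrane protein, had −0.88 (SE 0.25). Split on all UMIs, Hist1h2ap, Dlk1 and Birc5 stood at 1.01, 0.05 and 0.02, in the opposite direction.

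**Figure D3:**
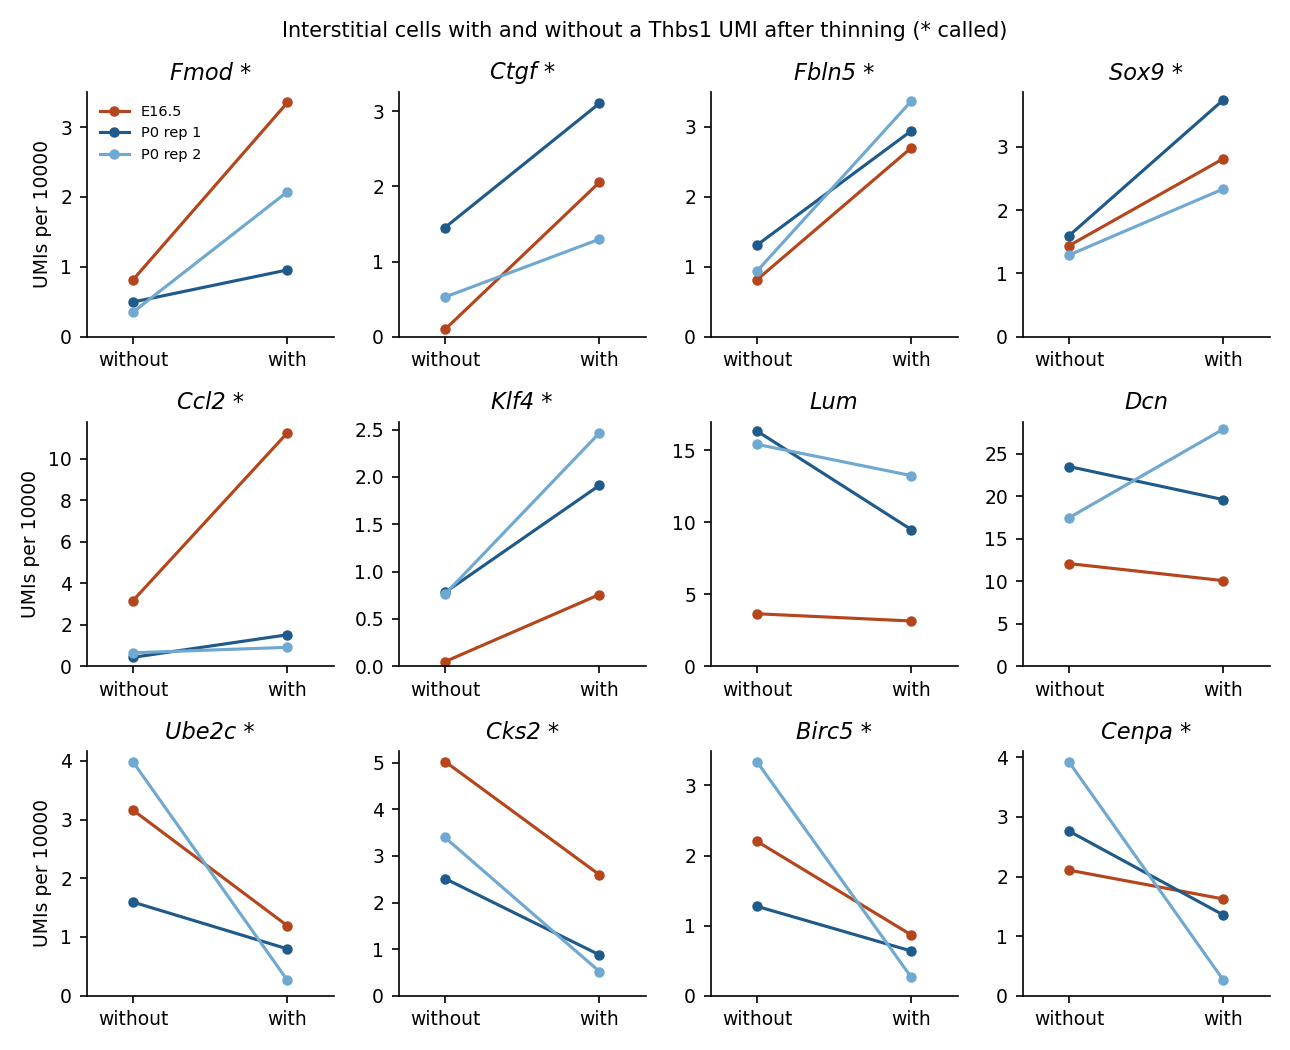
UMIs per 10000 UMIs in interstitial cells without and with a Thbs1 UMI after thinning to 1000 UMIs, 1 line per library, for 12 genes, with an asterisk where the gene passed the test. Fmod, Ctgf, Fbln5 and Sox9 were higher and Ube2c, Cks2, Birc5 and Cenpa lower with Thbs1 in all 3 libraries, while Lum and Dcn did not pass. Fmod, Klf4, Ube2c and Birc5 entered the test through 1 side alone, so their calls could go only 1 way.

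Promoter sequences are shown for 3 of the genes lower with Thbs1 and for Fmod, because genes expressed in G2 and mitosis are known to share the CCAAT box, bound by NF-Y, and the cell cycle genes homology region, bound by the DREAM complex. Windows run from 250 bases before to 50 after the start of the gene, from RefSeq on GRCm38.p6, 5′ to 3′ on the gene's strand, and 5 of the 10 higher and 15 of the 18 lower genes had one. Capitals mark the letters of CCAAT as the first motif searched. They also mark TTTGAA as the homology region, and GGAATG as a motif bound by TEAD factors. Each was searched on both strands, so capitals can also show the reverse complement. In Ube2c 1 capital run holds a pair of overlapping CCAAT matches, 1 per strand. Ube2c lies at chr2:164769679-164769978 (+ strand), Cdk1 at chr10:69352863-69353162 (− strand), Cenpa at chr5:30666636-30666935 (+ strand) and Fmod at chr1:134037004-134037303 (+ strand).
Ube2c: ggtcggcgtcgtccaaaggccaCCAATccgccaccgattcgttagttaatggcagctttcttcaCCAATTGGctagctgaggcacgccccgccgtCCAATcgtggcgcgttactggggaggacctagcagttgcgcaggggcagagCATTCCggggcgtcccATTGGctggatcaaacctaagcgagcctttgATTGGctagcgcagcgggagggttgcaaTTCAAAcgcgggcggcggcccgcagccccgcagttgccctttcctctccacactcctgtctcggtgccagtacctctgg
Cdk1: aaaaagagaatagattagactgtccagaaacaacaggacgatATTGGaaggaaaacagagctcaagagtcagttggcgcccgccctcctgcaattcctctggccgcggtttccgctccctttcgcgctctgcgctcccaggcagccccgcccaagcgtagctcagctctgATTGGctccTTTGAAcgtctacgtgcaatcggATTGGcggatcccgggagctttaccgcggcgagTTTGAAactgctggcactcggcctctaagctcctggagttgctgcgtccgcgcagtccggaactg
Cenpa: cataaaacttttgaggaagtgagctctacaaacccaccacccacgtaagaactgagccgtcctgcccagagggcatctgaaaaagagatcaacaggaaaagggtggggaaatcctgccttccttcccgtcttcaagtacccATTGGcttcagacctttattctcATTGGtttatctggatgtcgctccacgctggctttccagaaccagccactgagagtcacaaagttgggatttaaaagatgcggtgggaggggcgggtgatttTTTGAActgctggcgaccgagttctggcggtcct
Fmod: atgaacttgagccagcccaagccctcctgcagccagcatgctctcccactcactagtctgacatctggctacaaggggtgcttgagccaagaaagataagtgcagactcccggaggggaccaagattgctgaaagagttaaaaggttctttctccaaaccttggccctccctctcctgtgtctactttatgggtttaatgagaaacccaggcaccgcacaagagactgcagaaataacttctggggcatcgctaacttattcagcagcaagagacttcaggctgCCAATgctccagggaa
CCAAT was found in 10 of the 15 lower and 2 of the 5 higher genes with a window, Fbln5 and Fmod, against 41.06% of 27025 genes. TTTGAA was found in 8 of 15 and 0 of 5, against 20.23%. GGAATG was found in 3 of 15 and 1 of 5, against 16.58%, and the TATA box TATAAA in 2 of 15 and 0 of 5, against 15.67%. A match is a description of letters in the window and not a site in use.

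For the split by Lum, with 34 against 99, 50 against 35 and 28 against 24 cells, 0 of 1553 genes were higher and 1 was lower (0.0644%) in cells with Lum in edgeR's quasi-likelihood fit after Benjamini-Hochberg adjustment. At an unadjusted p under 0.05 there were 124, and DESeq2 gave 2 higher and 3 lower. These counts were not stable either, since leaving out any 1 library gave 4 to 8 higher and 7 to 9 lower and another thinning 5 and 13. The number of genes was not compared with that of the Thbs1 split by a test. The gene called was Col1a1, 1 of the collagens that chose the cells, so its values are a description. It stood at 12.5 UMIs per 10000 with Lum and 19.8 without at E16.5, 18.8 and 25.8 in P0 replicate 1, and 18.9 and 30.3 in P0 replicate 2. Dcn, the other marker proteoglycan, had a log2 fold of 0.24, Thbs1 of −0.46 and Fmod of −1.46, and none of these passed. Igfbp5 and Cdkn1c were higher with Lum in 3 of 3 libraries (log2 folds 3.07 and 1.34) and Sfrp2 and Tagln lower in 3 of 3 (−1.27 and −1.16), at adjusted p between 0.064 and 0.068 by edgeR's quasi-likelihood test, genes chosen after their values were seen. At the same level of adjusted p lay the rule gene Col1a2 and the macrophage genes Fcer1g, C1qb and C1qc, which had 53, 51 and 51 UMIs in cells without Lum and 0 in cells with it. Igfbp5 reached the level for testing only on the side with Lum, and Fmod, Fcer1g, C1qb and C1qc only on the side without. The difference of each of these genes could go only 1 way, so their values are a description. The part of the interstitial cells holding immune UMIs in this split was not tested beyond the counts without them, 3 higher and 5 lower. With fewer than 10 cells with Fmod in each P0 library, no test was made for Fmod.

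Between stages, the summed UMIs of the E16.5 interstitial cells were richer in Fmod, P4hb and Col16a1 and poorer in Lum, Aspn and Ogn than those of the P0 cells, with TMM scaling and with library totals alike. For Fmod the sum rests on few cells, since 14 E16.5 cells held 83.3% of its UMIs. After thinning it was seen in 9.77% of interstitial cells at E16.5 against 5.88% and 9.62% at P0. A gene was called only if, besides passing the test, its E16.5 level per library total lay outside both P0 levels.

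Of 4102 genes tested, 716 were higher (17.5%) and 514 lower (12.5%) at E16.5 in edgeR's quasi-likelihood fit after Benjamini-Hochberg adjustment, 30.0% in either direction. Counts within the gene lists below are to be set beside these shares of all genes, and no list was tested as a set. The fit had 1 residual degree of freedom and assumes that the E16.5 library varies like the P0 libraries. Scaling by library totals instead of TMM, 408 were higher and 1171 lower and the median log2 fold of all genes moved from −0.08 to −0.67, so directions are relative to the bulk of genes. The call itself required the same direction under totals, so agreement there was fixed in advance. All 1230 called genes kept their direction under DESeq2, which called 302 higher and 85 lower. Malat1, a long RNA retained in the nucleus, made up 8.53 of 10000 UMIs in E16.5 interstitial cells against 368 and 402 at P0, and the part of RNA quality in the stage difference was not tested. A gene entered the test if it reached 0.403 UMIs per 10000 in any 1 library. Of the higher calls, 97 reached it at E16.5 alone, and of the lower calls 319 reached it at P0 alone, genes that could enter only through the stage where they were high. Among the genes named below these were Scx, Col2a1, Snai1, Hspa1b and Myl7 on the higher side. On the lower side they were Adamts1, Adamts5, Cdkn1c, Clec3b, Col15a1, Id4, Lmcd1, Matn2, Mmp14, Notch2, Plod2, Smoc2, Tcf21, Zeb1 and Zeb2. A call of any of these genes could go only 1 way, so their values below are a description. Several of the most changed genes, such as Gm6525 and Gm8444 (log2 folds 6.602 and 4.79) or Rps12 (−2.997), have near-identical copies and are uncertain.

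**Figure D4:**
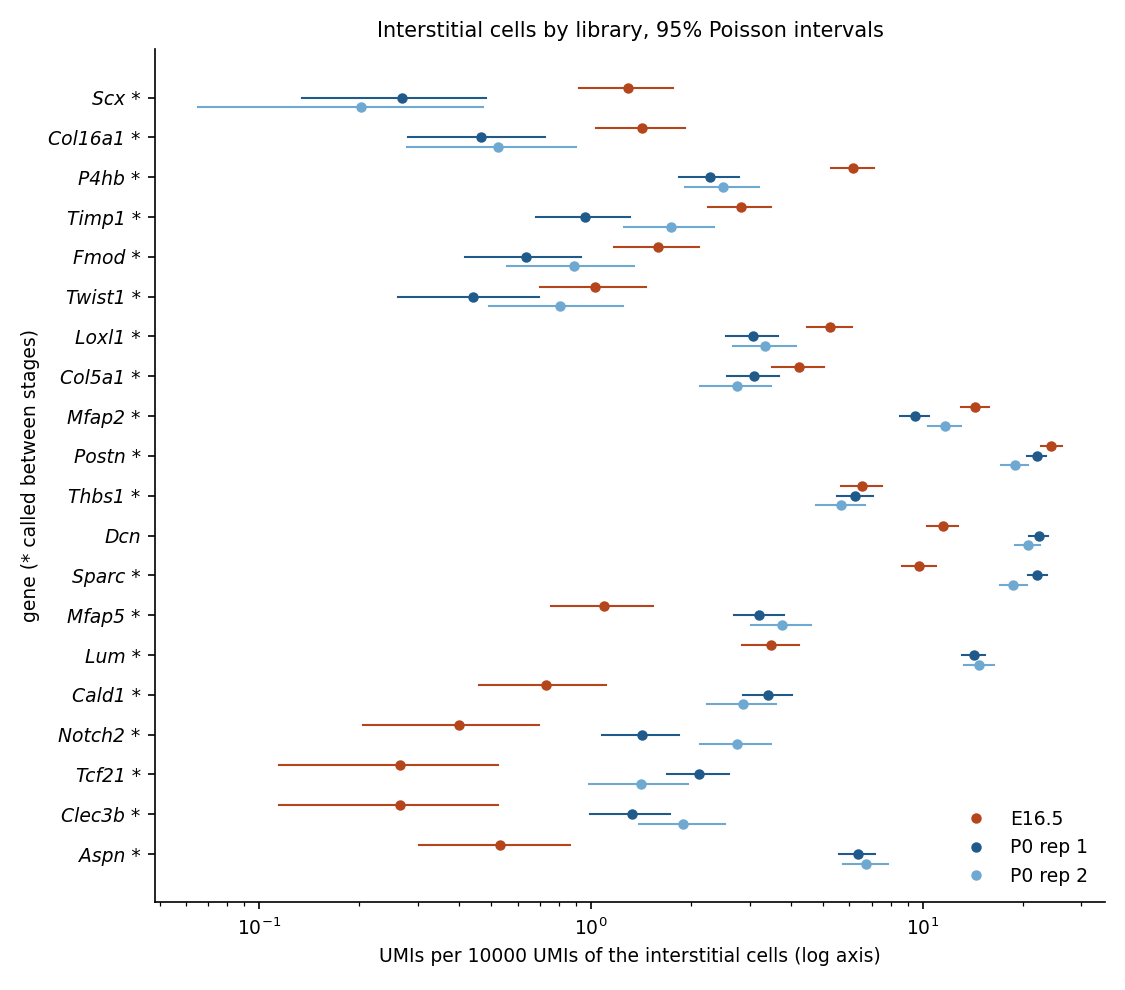
UMIs per 10000 UMIs of the interstitial cells on a log axis, for 20 genes in each of the 3 libraries, with 95% Poisson intervals that cover counting error only and an asterisk where the gene passed the test between stages. Scx, Col16a1 and P4hb were highest at E16.5, and Lum, Tcf21, Clec3b and Aspn were lowest there.

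Among collagens outside the rule, 6 of 13 measured were higher at E16.5 and 1 lower, with a median log2 fold of 0.85 (3 higher, 4 lower and 0.26 with library totals). Col5a1, which starts fibril assembly, stood at 4.22 against 3.09 and 2.74, a log2 fold of 1.08 (SE 0.25) that did not pass with library totals (0.49, adjusted p 0.091 by edgeR's quasi-likelihood test). Col16a1, a fibril-associated collagen, stood at 1.43 against 0.466 and 0.525, a log2 fold of 2.09 (SE 0.38, adjusted p 4.5e-07 by edgeR's quasi-likelihood test). Col12a1, which bridges fibrils, and Col18a1 of basement membranes had 1.59 and 1.47. Col15a1 was the one that was lower, at 0.398 against 1.37 and 1.53 (−1.29).

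Of 19 genes for collagen processing and cross-linking, 4 were higher and 2 lower, with a median of 0.53. These counts lay near the shares over all genes tested, 17.5% higher and 12.5% lower. With library totals 2 were higher and 8 lower and the median was −0.06, so the balance of this list turned with the scaling. P4hb, the protein disulphide isomerase subunit of prolyl hydroxylase, stood at 6.14 against 2.28 and 2.502, a log2 fold of 1.93 (SE 0.24). Loxl1 (1.28) and Lox (1.55), the cross-linking oxidases, were also higher, and Plod2 (−1.34), a lysyl hydroxylase, and Sparc (−0.51), a collagen chaperone, were lower.

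The small leucine-rich proteoglycans split. Fmod stood at 1.59 against 0.637 and 0.888, a log2 fold of 1.66 (SE 0.36, adjusted p 4.6e-05 by edgeR's quasi-likelihood test), above both P0 libraries, on 48 UMIs at each stage. Its adjusted p was 0.097 by DESeq2. Lum (−1.49, SE 0.22, adjusted p 4.8e-10 by edgeR's quasi-likelihood test) was lower, as were Aspn, asporin, at 0.531 against 6.35 and 6.74 (−3.05, SE 0.35), and Ogn, osteoglycin (−1.41). In all, 1 of 8 rose and 3 fell at E16.5, with a median of −0.74. Dcn had a log2 fold of −0.35 (adjusted p 0.12 by edgeR's quasi-likelihood test) and −0.94 with library totals, where it passed. Bgn had 0.59, but the E16.5 library lay between the P0 libraries, so it was not called.

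Elastic fibre genes gave 6 higher and 1 lower of 14 (median 0.43, and −0.16 with library totals, where 2 were higher and 3 lower). Mfap2, the microfibril protein MAGP1, stood at 14.4 against 9.44 and 11.6 (log2 fold 1.02). Fbln1 and Fbln2, fibulins that link elastin and proteoglycans, had 1.20 and 1.13. Mfap5 was lower, at 1.10 against 3.21 and 3.75 (−1.09). Among matricellular genes Postn (0.80), Thbs1 (0.69) and Cthrc1 (0.98) were higher and Matn2 (−1.85) and Smoc2 (−3.42, on 1 UMI against 36) lower, of 11 measured, with 0 higher and 4 lower under library totals. Thbs1 itself stood at 6.54 against 6.25 and 5.65, and its fold was 0.10 with library totals and −0.12 in cells with at least 1000 genes.

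Proteases and inhibitors gave 2 higher, Timp1 (1.69) and Htra1 (1.85), and 4 lower of 13. Of the lower genes, Adamts1, Adamts5 and Mmp14 entered the test through P0 alone, so their values are a description. Timp1, an inhibitor of metalloproteinases, stood at 2.82 against 0.956 and 1.74. Mmp14, a membrane metalloproteinase, had 2 UMIs at E16.5 against 113 at P0, a ratio of 0.0385 (0.00461 to 0.142, counting error only). Adamts5, the protease that cleaves versican and whose loss thickens mouse valves, had 0 UMIs at E16.5 against 47 and was at least 7.198-fold lower, taking 3 UMIs over the E16.5 cells as the floor. Versican itself (Vcan) stood at 2.56 against 4.63 and 5.25, and did not pass (log2 fold −0.38). Among hyaluronan and large proteoglycan genes 0 of 9 were higher and 1, Gpc3 (−1.10), was lower, against 5 lower with library totals.

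Of 17 valve mesenchyme transcription factors, Twist1 (1.35) and Snai1 (2.31), factors of the endothelial-to-mesenchymal transition, were higher, and Tcf21 (−2.19), Zeb1 (−2.01) and Zeb2 (−1.33) lower. Over all genes tested, 17.5% were higher and 12.5% lower. Snai1 entered the test through E16.5 alone and Tcf21, Zeb1 and Zeb2 through P0 alone, so the values of these genes are a description. Tcf21, a factor of fibroblast progenitors, stood at 0.266 against 2.11 and 1.41. Twist1 stood at 1.03 against 0.441 and 0.807 and did not pass with library totals (0.76, adjusted p 0.11 by edgeR's quasi-likelihood test), under which 1 gene of the list was higher and 7 lower. Sox9 and Tbx20 had log2 folds of 0.47 and −0.06 and did not pass.

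Only 3 of the 20 cartilage, tendon and bone genes reached the level for testing, and Scx and Col2a1 reached it at E16.5 alone, so their values are given as a description. Scx, the tendon transcription factor scleraxis, stood at 1.29 UMIs per 10000 at E16.5 (39 UMIs, 95% Poisson interval 0.921 to 1.77) and at 0.270 and 0.202 at P0. Col9a1, a cartilage collagen, stood at 1.13 against 0.662 and 0.726 and was higher (log2 fold 1.27). Col2a1, the main cartilage collagen, had 23 UMIs at E16.5 and 0 at P0 and was at least 16.7-fold higher, taking 3 UMIs over the P0 cells as the floor. Of those 23 UMIs, 13 were in the 13 E16.5 cells that had Fmod after thinning, at 5.19 UMIs per 10000 against 0.362 in the other 120 cells. Scx stood at 1.996 and 1.23 on these sides, at 0.828 and 0.235 in P0 replicate 1 and at 1.87 and 0.0863 in P0 replicate 2, on 2 to 34 UMIs a side. These are values of small groups without a test.

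Fibroblast genes of adult type gave 3 lower, Clec3b (−1.997), Cd34 (−1.13) and Gsn (−0.997), and 1 higher, Mgp (1.29), of 6. Clec3b, tetranectin, stood at 0.266 against 1.32 and 1.90. Mgp, matrix Gla protein, which limits calcification, stood at 22.1 against 13.6 and 12.9, but its fold was −0.26 in cells with at least 1000 genes. Of 6 contractile genes 2 were higher and 3 lower, and with library totals 0 and 3, with Tagln, Cald1 and Tpm1 lower (−1.06, −1.55 and −1.03) and Myl9 and Tpm2 higher (0.90 and 1.07), and Acta2 did not pass (0.44).

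In signalling, 2 of 4 measured Notch pathway genes were lower, the receptor Notch2 at 0.398 against 1.42 and 2.74 (−1.76) and the target Hes1 (−1.06). Notch2 entered the test through P0 alone, so its value is a description. Of 15 BMP and TGF-beta genes, the receptor Acvr1 (1.35) and the inhibitors Id1 and Id3 (1.01 and 0.91), induced by BMP, were higher, and Id2 and Id4 (−1.16 and −2.17) lower. These counts lay near the shares over all genes tested, 17.5% higher and 12.5% lower. With library totals 0 of the 15 were higher and 4 lower. Id3 stood at 13.6 against 9.32 and 12.2, with a fold of −0.05 in cells with at least 1000 genes. Of 8 Wnt pathway genes 1, the secreted inhibitor Sfrp1, was lower (−1.07), against 4 with library totals. Among growth genes H19 (1.33) and Igf2 (0.94), imprinted neighbours of fetal growth, were higher and Meg3 (−2.58) and Cdkn1c (−2.23) lower, of 15, against 1 higher and 5 lower with library totals.

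Of 8 measured genes of mitral valve disease, the actin-binding Flna (1.09), the cadherin Dchs1 (1.62) and Col5a1 were higher and Lmcd1 (−1.29) and Adamts5 lower, while Fbn1 had −0.54 and did not pass. With library totals 0 of these were higher and 4 lower. Among cell cycle genes Mki67 (1.99) and Tyms (1.503) were higher and Hmgb2 (−1.17) lower of 16, against 1 higher and 4 lower with library totals. The 20 genes of that list summed to 16.8 UMIs per 10000 at E16.5 and to 18.0 and 28.2 at P0. Ccl2 (3.47), Ddit3 (2.51) and the chaperone Hspa5 (0.76) were higher of 7 chemokine and unfolded protein response genes. Of 18 dissociation stress genes 11 were lower, such as Junb at 1.46 against 11.3 and 12.8 (−2.48), and Hspa1a (2.72) and Hspa1b (4.24) were higher. The list summed to 29.9 UMIs per 10000 at E16.5 against 83.1 and 82.8, and its part in the other stage differences was not tested. Myl7, the atrial myosin light chain, had 67 UMIs against 0 and was at least 48.6-fold higher, beside the cardiomyocyte RNA given above.

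The stage difference in interstitial cells was set against that in endothelial cells of the same libraries. Few genes differed by this test. Of 4906 genes, the stage difference was higher in interstitial cells for 18 (0.367%) and lower for 25 (0.510%), 0.876% in either direction, in edgeR's quasi-likelihood fit of the interaction after Benjamini-Hochberg adjustment. DESeq2 called 0, with 23 at an unadjusted p under 0.05, and with a collagen minimum of 40 per 10000 edgeR called 1 and 0. The values below hold for this fit.

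Lum was lower beyond the endothelial difference. It stood at 3.49 against 14.2 and 14.7 in interstitial cells and at 0.934 against 1.44 and 1.43 in endothelial cells, an interaction of −1.51 on the log2 scale (SE 0.35, adjusted p 0.0045 by edgeR's quasi-likelihood test). Mfap5 had −2.23, at 1.10 against 3.21 and 3.75 in interstitial cells and 2.21 against 1.13 and 2.28 in endothelial cells. Gsn had −2.71, at 2.36 against 6.72 and 7.18, with 0.400 against 0.190 and 0.178 in endothelial cells, on 15, 19 and 8 UMIs there. In these 3 genes the interstitial cells were lower at E16.5 than in both P0 libraries. Lsp1, an actin-binding protein best known from leukocytes, and Gpx3, a secreted glutathione peroxidase, had −3.36 and −2.79. Both were also lower in interstitial cells at E16.5. Lsp1 reached the level for testing only in interstitial cells at P0. Its call could go only 1 way, so its value is a description.

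In other called genes the levels of endothelial cells differed more between stages. Several of these endothelial levels rest on few UMIs. The rule gene Col1a1 also stood higher in endothelial cells at E16.5, at 0.640 against 0.290 and 0.201. The part of free RNA in these levels was not tested. Mfap4 had −2.74, yet in interstitial cells it stood at 8.07 against 6.203 and 7.22. Endothelial cells had 0.560 against 0.0800 and 0.0446, on 21, 8 and 2 UMIs. Dpt, dermatopontin, had −2.19 with 0.507 against 0.210 and 0 in endothelial cells, on 19, 21 and 0 UMIs. Myl4, an atrial myosin light chain, had −3.54, with 1.76 against 0.130 and 0.223 in endothelial cells, where the cardiomyocyte markers summed to 19.1 at E16.5 and to 4.45 and 2.12 at P0. Myl4 reached the level for testing only in endothelial cells at E16.5. Its call could go only 1 way, so its value is a description. Ptx3, a soluble pattern-recognition protein of the matrix, had −3.45, on 10, 7 and 0 UMIs in endothelial cells. Eln, tropoelastin, had 2.09, and stood at 3.98 against 4.98 and 3.91 in interstitial cells and at 1.254 against 5.35 and 8.05 in endothelial cells. Elastin RNA was lower in endothelial cells at E16.5 and near level in interstitial cells.

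Of the elastic fibre list, 14 genes were tested, of which Eln was higher and Mfap4, Mfap5 and Emilin1 lower, with a median of −0.51 against −0.02 for all genes. Ccl2 had 3.97 (SE 0.46), at 5.64 against 0.760 and 0.726 in interstitial cells and 0.427 against 1.45 and 0.245 in endothelial cells. Nupr1, a stress-induced chromatin protein, had 3.25. Mki67, the proliferation marker, had 2.40, at 0.963 against 0.319 and 0.403 in interstitial and 0.293 against 0.690 and 0.468 in endothelial cells. It was 1 of 16 cell cycle genes to pass. Tspan7 had 2.54, at 0.730 against 0.466 and 0.403, and 0.240 against 1.05 and 0.669 in endothelial cells. Zfp36l2 had 2.62, but its interstitial level of 1.03 lay between the P0 levels of 0.490 and 1.05, while endothelial cells had 0.187 against 0.910 and 0.736. Pf4, a chemokine of platelets and macrophages, had 3.37, but 49 of its 52 UMIs at E16.5 lay in the 2 interstitial cells holding at least 2 immune UMIs. Thbs1, Dcn and Fmod were not called.

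**Figure D5:**
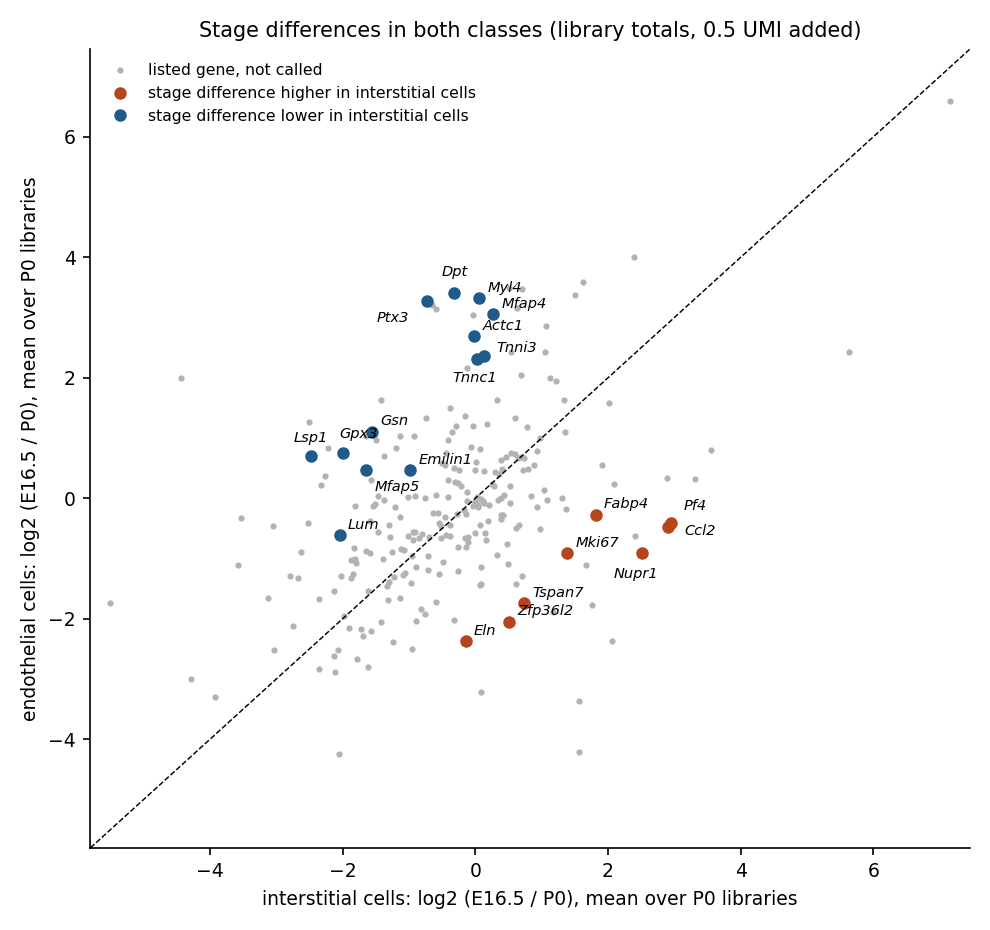
Stage difference in endothelial cells (vertical) against that in interstitial cells (horizontal) for the genes of the lists and the named genes, each as log2 of E16.5 over P0 from library totals with 0.5 UMI added, averaged over the P0 libraries. Coloured points passed the test of the interaction, and the dashed line marks equal differences. Lum, Gsn and Mfap5 lay to the left of the line and Ccl2, Nupr1 and Eln to its right.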

How the data were processed

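The deposited files held UMI counts per gene and cell for 3 libraries, made with Cell Ranger 2.1.1 on mm10, per the submitters' processing notes. The deposited barcode lists and gene tables carried names only. The 2 barcode lists of P0 fitted each other's matrix by length and were matched by it, and 15 gene symbols turned into dates were looked up by identifier among 27998 gene rows. Library totals were 1021188, 1836768 and 1086623 UMIs over 452, 291 and 211 cells. Whether counting used strand is not given in the sources used here.

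Members and gene lists were chosen with earlier results of these data known, and the called genes of a list that the text names beyond the naming rule were chosen after their values were seen. The rule took, per comparison, the called genes with the largest log2 fold among those with at least 4 UMIs on both sides, genes at 0 on one side, the best gene of each of 19 lists and Thbs1, Lum, Fmod and Dcn. Of 359 listed genes, 1 was not found. Doublets were scored with the scrublet method in scanpy 1.11.5 (6, 2 and 1 kept cells). UMIs were summed per library and class or side, genes were kept if their share of at least 1 sum reached the share that 10 counts are of the smallest sum, and sums were fitted with edgeR 4.0.16 (TMM, quasi-likelihood) in R 4.3.3 at an adjusted p of 0.05. The 15 rule genes were fitted but left out of the counts for the stage and interaction, and the split gene out of the counts of its own split. A stage call also needed the E16.5 level to lie outside both P0 levels. The stage and interaction fits had 1 residual degree of freedom and the splits 2, and the quasi-likelihood prior was infinite, so that genes shared 1 estimate of spread, in the reported fits of stage, interaction and Thbs1. It was finite in that of Lum and in several alternatives, which limits comparison of counts between fits. Cells of a side come from 1 library and are not replicates. The scripts were tested on simulated data. Alternatives were library totals, DESeq2 1.42.0, other filters, limits and thinnings, left-out cells and left-out libraries. Intervals cover counting error only. Promoters came from RefSeq on GRCm38.p6.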

Additional observations from a re-analysis of the deposited data

Results flagged for a closer look

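The stage difference of interstitial cells differed from that of endothelial cells of the same libraries, by a test of the interaction itself (edgeR's quasi-likelihood fit, adjusted by Benjamini-Hochberg), for 18 genes in the higher and 25 in the lower direction. Among the named genes it was higher in interstitial cells for Ccl2 (log2 interaction 3.97), Pf4 (3.37), Nupr1 (3.25), Zfp36l2 (2.62), Tspan7 (2.54), Mki67 (2.40) and Eln (2.09). It was lower for Myl4 (−3.54), Ptx3 (−3.45), Lsp1 (−3.36), Gpx3 (−2.79), Mfap4 (−2.74), Gsn (−2.71), Mfap5 (−2.23) and Lum (−1.51). DESeq2 called none of these, with 23 genes at an unadjusted p under 0.05. Myl4 and Lsp1 each reached the level for testing in 1 class at 1 stage alone, so their calls could go only 1 way. E16.5 is 1 library, so stage and library cannot be told apart.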

How the results depend on the processing

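Counts of genes are given as higher and lower. Between stages (716 and 514), library totals gave 408 and 1171, DESeq2 302 and 85, and cells with at least 1000 genes 386 and 351, where Thbs1 (−0.12), Id3 (−0.052) and Mgp (−0.26) turned direction. For the interaction (18 and 25), DESeq2 gave 0 and 0, all genes with at least 1 UMI 8 and 16, a collagen minimum of 40 per 10000 1 and 0 with Pf4 turned to −0.21, all other kept cells in place of endothelial cells 5 and 11, and library totals 19 and 15. For Thbs1 (10 and 18), DESeq2 and a minimum of 40 gave 0 and 0, a minimum of 10 gave 3 and 1, all genes 6 and 22, all UMIs 2 and 1, and another thinning 6 and 4. Leaving out 1 library gave 6 to 12 higher and 7 to 16 lower, lowest without P0 replicate 1 (6 higher) and P0 replicate 2 (7 lower). Turned directions were Birc5 (0.065 at a minimum of 40 and 0.017 on all UMIs), Hist1h2ap (1.01) and Dlk1 (0.052) on all UMIs. For Lum (0 and 1), library totals gave 9 and 8, DESeq2 2 and 3, all genes 2 and 10, a minimum of 10 2 and 1, a minimum of 40 10 and 6, cells with immune UMIs left out 3 and 5 (chosen after seeing the data), another thinning 5 and 13, and leaving out 1 library 4 to 8 and 7 to 9. The cause of these changes was not tested. Without the replicate block of libraries, both splits gave 0 higher and 0 lower. No paired analysis was possible because E16.5 has a single library for the stage comparison. With a minimum of 40 the share of interstitial cells was 26.9%, 24.7% and 22.03%, and among E16.5 cells with at least 1000 genes 23.2%. The Fmod split (under 10 cells a side at P0) and the Lum split on all UMIs were not run, and stage counts without a P0 replicate had no residual degrees of freedom. E16.5 cells were the shallowest, which limits low genes there.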
